A study of Mus musculus with 62 samples.

Results

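H3K27ac levels were compared between mouse diaphragm (Dia) and quadriceps femoris (Quad) at the H3K27ac-marked regions that both muscles shared. Regions were taken from the peak lists of the muscles and paired one to one wherever each covered at least 50% of the other, which gave 18822 matched regions from 33106 Dia and 40949 Quad peaks, with 10661 different nearest genes. The study profiled 62 chromatin libraries of mouse skeletal muscle, and 4 of them, 2 H3K27ac libraries per muscle, carry this comparison. All 4 came from sedentary wild-type C57BL/6 mice, young adult males of the substrain C57BL/6J per the study's methods, and were immunoprecipitated with a rabbit antibody to H3K27Ac (the labels spell the muscle "Diaphram"). Per the study's methods, a Quad sample was a single muscle of 1 animal and a Dia sample pooled muscles of several animals, so muscle and pooling cannot be told apart. The Dia libraries held 21.5 and 19.2 M tags and the Quad libraries 24.2 and 15.3 M, as the file headers give them. The read statistics of the study list the total of the second Dia H3K27ac library under H3K4me2 and the reverse. In the files, the second Dia H3K27ac library had a rank correlation of 0.95 with the first and of 0.65 with either Dia H3K4me2 library over 11029 regions, much as in Quad (0.95, 0.70 and 0.69), and these libraries share their peaks. Whole muscle was used. In such bulk samples fewer cells of a type and less of the mark per cell cannot be told apart either.

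H3K27ac is acetylation of histone H3 at lysine 27, which marks active promoters and enhancers, the distal elements that raise transcription of genes in their neighbourhood. The diaphragm contracts with every breath throughout life and is rich in oxidative fibers, whereas the quadriceps of the mouse is built mostly of fast glycolytic fibers that act in bursts. The muscles also differ in embryonic origin along the body axis, and the thin diaphragm is covered on its surfaces by mesothelium, the epithelium that lines body cavities.

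The sequences below come from 3 of the 4 regions with the largest differences higher in Dia, from 3 of the 4 with the largest differences lower in Dia, and from the promoter region with the largest difference in each direction, so that the stretches of genome behind the leading values can be read. They are stretches of the GRCm38 (mm10) genome at the centre of a region, or at the Quad ATAC-seq peak (transposase-accessible chromatin) of a region where it had one. Capitals mark matches, on either strand, to the MEF2 motif or to CAGCTG (bound by myogenic basic helix-loop-helix factors), AGGTCA (nuclear receptors), TGANTCA (AP-1), GGAATG (TEAD factors) or TCAGGTTNC, a word given by its letters alone. Those higher in Dia come first and had no Quad ATAC-seq peak to centre on.

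Myh14, chr7:44683785-44683984, plus strand: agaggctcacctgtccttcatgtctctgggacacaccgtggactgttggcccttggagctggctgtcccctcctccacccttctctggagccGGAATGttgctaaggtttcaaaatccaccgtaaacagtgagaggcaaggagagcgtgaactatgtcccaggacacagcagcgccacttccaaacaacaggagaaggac
Khdrbs3, chr15:69091082-69091281, plus strand: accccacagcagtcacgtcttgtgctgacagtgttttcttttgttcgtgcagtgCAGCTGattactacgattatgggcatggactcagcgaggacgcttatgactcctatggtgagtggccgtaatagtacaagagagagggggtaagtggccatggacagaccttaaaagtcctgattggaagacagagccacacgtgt
4931430N09Rik, chr6:118884461-118884660, plus strand: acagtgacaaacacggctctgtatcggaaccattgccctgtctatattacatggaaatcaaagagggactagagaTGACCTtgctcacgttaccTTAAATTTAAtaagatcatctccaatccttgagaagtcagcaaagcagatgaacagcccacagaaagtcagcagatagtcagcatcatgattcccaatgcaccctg
Mir615 promoter, chr15:103014806-103015005, plus strand: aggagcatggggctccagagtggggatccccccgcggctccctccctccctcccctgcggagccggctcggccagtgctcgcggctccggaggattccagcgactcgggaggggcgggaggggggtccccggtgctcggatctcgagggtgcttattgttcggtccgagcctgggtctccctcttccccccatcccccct

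Regions lower in Dia are shown at their Quad ATAC-seq peak.

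Dlg1, chr16:31626405-31626599, plus strand: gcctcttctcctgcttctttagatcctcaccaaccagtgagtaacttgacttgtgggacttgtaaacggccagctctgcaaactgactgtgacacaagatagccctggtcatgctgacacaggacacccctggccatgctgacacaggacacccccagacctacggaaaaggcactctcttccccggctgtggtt
Rxrg, chr1:167588903-167589097, plus strand: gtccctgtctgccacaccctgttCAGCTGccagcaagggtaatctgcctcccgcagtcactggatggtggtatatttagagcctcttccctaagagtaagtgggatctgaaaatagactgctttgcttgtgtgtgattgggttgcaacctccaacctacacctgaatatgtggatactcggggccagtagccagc
Pcx, chr19:4517604-4517798, plus strand: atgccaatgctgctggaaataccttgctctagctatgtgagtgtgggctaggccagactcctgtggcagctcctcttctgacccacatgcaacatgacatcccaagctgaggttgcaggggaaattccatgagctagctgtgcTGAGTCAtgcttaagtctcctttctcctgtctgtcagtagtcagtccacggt
Gm28979 promoter, chr9:101341160-101341354, plus strand: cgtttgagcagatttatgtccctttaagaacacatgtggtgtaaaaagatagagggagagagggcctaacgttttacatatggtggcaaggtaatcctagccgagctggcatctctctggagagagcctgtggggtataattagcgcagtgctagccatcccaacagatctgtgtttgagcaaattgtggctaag

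Of the sequences from regions higher in Dia, that of Khdrbs3 held CAGCTG, that of Myh14 held GGAATG, and that of 4931430N09Rik held a MEF2 match and AGGTCA. Of those lower in Dia, the Rxrg stretch held CAGCTG and the Pcx stretch held TGANTCA. The remaining 3 held none of the 6 motifs. A match describes letters and is not evidence that a factor binds.

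Levels in both muscles were close at most shared regions. A level here is log2 tags per kb of region width, set relative to the median of its library over the matched regions, and a difference is the Dia mean minus the Quad mean of 2 libraries each. The median size of the difference was 0.29. Between single libraries it was 0.30 to 0.34 for Dia against Quad, 0.18 between the Dia libraries and 0.18 between the Quad libraries. The middle of the distribution, from the 25th to the 75th percentile, ran from -0.26 to 0.31. A region was called higher or lower in Dia when the difference was at least 2-fold and the libraries of the muscles did not overlap. By this rule 347 regions (1.84%) were higher in Dia and 443 (2.35%) were lower, 790 (4.2%) in all, and 2 of the former and 10 of the latter passed 4-fold.

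The called regions lay near 329 genes with a region higher in Dia (3.09% of the genes) and 407 with a region lower (3.82%). They were mostly weakly to moderately acetylated. Split into 5 equal groups by mean level, from low to high, the matched regions held 114, 80, 79, 42 and 32 regions higher in Dia and 123, 135, 117, 58 and 10 lower. Because each peak list was normalised separately by the authors, no test between the muscles was made and the calls are descriptions of these 4 libraries.

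The input libraries (sheared chromatin without immunoprecipitation, 1 for Dia and 2 for Quad) moved with the calls. The input column of the same lists, treated in the same way, was 0.78 higher in Dia at the median region called higher and 0.72 lower at the median region called lower (difference -0.72), against 0.02 over all matched regions. Across the matched regions the input difference and the H3K27ac difference had a Pearson r of 0.67, both read from the same lists. With the input subtracted, a setting chosen after the data were seen, 101 regions were higher and 101 lower, and 31 of the 347 and 51 of the 443 were still called. The median differences of the called regions then were 0.47 and -0.53. The part of the input in the differences was not tested. Counts also rested on the width of the regions and the matching. Without the correction for width, regions over 2-fold higher in Dia numbered 1052 and regions over 2-fold lower in Dia 1159, and when each region had to cover 80% of the other they numbered 73 and 141. Without the first Quad library the higher ones numbered 540.

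**Figure D1:**
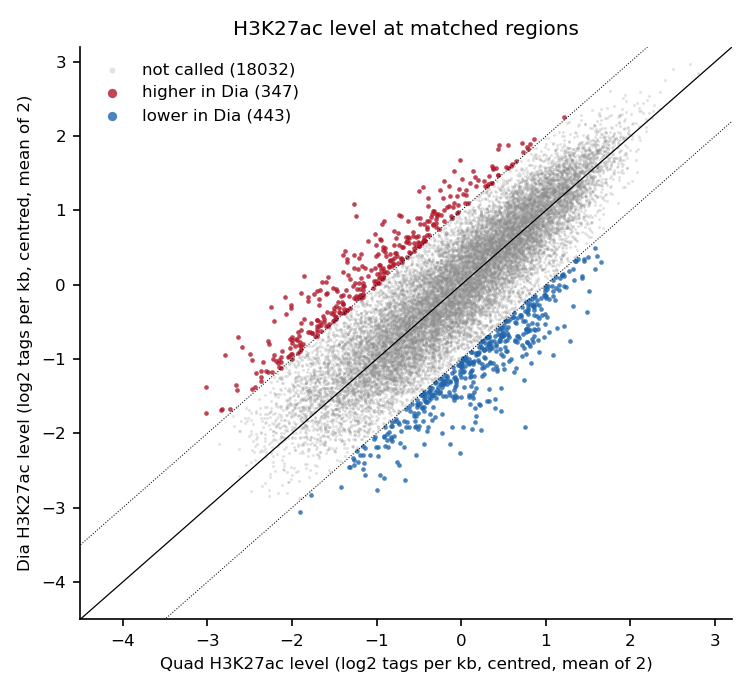
H3K27ac levels of the 18822 matched regions, with the Quad level on the horizontal and the Dia level on the vertical axis (log2 tags per kb, centred, mean of 2 libraries). The solid line marks equal levels and the dotted lines 2-fold; the 347 regions higher in Dia (red) and the 443 lower (blue) lie beyond the dotted lines, thinning toward high levels.

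Among the regions called higher in Dia, the largest difference lay between Myh14 and Izumo2. Myh14 encodes a non-muscle myosin heavy chain. The region (chr7:44682573-44685195), 13.5 kb from the Myh14 start, had levels of 1.03 and 1.15 in the Dia libraries and of -0.98 and -1.55 in the Quad libraries, so that Dia stood above and Quad below the median of their libraries. The difference was 2.36 ± 0.33 (SD over the 4 pairings of single libraries), or 5.12-fold, while the input column differed by 0.94.

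The region ranked next lay within Khdrbs3 (chr15:69089078-69093284), which encodes an RNA-binding regulator of splicing. Its levels were 1.01 and 0.84 in Dia and -0.92 and -1.57 in Quad, a difference of 2.17 ± 0.39. The region named for the non-coding gene 4931430N09Rik lay in an intron of Cacna1c, the gene of the cardiac and smooth muscle L-type calcium channel. Its levels were 0.32 and -0.08 in Dia and -1.83 and -1.88 in Quad. Its difference of 1.97 ± 0.23 stood beside an input difference of 2.07, and it was -0.10 with the input subtracted.

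Among the 15 largest, a region 7.69 kb upstream of Slc2a4, the insulin-responsive glucose transporter GLUT4, had levels of -0.11 and -0.12 in Dia and -1.55 and -2.23 in Quad, a difference of 1.78 ± 0.40. The Slc2a4 region over the gene itself differed by only 0.31, with all 4 libraries between 1.42 and 1.78. Thus both Slc2a4 regions lay higher in Dia, but the weaker upstream one accounted for the call.

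The promoter of the microRNA gene Mir615 (chr15:103013751-103016059), inside Hoxc5, was the largest difference at a promoter. Its levels were 1.24 and 1.27 in Dia and -0.38 and -0.63 in Quad, a difference of 1.76 ± 0.15. The first intron of Rhou, which encodes a small GTPase, had levels of 1.5 and 1.12 in Dia against -0.40 and -0.50 in Quad. Both regions were strongly acetylated in Dia and below the median in Quad. Other members of this set lay near Tectb, Pex14 (peroxisome import), Zfp827, Clic4 (a chloride channel family protein), Ttc32 and H2al1j, with differences from 1.75 to 1.94.

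Among the regions called lower in Dia, the largest difference was a distal region between Bdh1 and Dlg1 (chr16:31625391-31627578). Bdh1 encodes the mitochondrial enzyme that interconverts ketone bodies and Dlg1 a scaffold protein of the membrane. Dia levels were -1.92 and -1.91 and Quad levels 0.82 and 0.69, a difference of -2.67 ± 0.08, or 6.38-fold. The replicates of each muscle nearly coincided. The input column differed by -2.27 at this region, and the difference was -0.40 with the input subtracted.

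A region 9.47 kb from Rxrg (chr1:167587868-167589906), a retinoid X receptor, had Dia levels of -1.72 and -2.81 and Quad levels of 0.14 and -0.18. Its difference was -2.25 ± 0.66, with the second Dia library lowest, and -0.33 with the input subtracted. An intron of Pcx, which encodes pyruvate carboxylase, had Dia levels of -1.56 and -1.83 and Quad levels of 0.44 and 0.50 (difference -2.17 ± 0.16). The last exon of Zzz3 ranked between them at -2.18 ± 0.14. At all 3 the Quad libraries lay near or above the median and the Dia libraries far below it.

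At a promoter, the largest such difference was that of the predicted gene Gm28979, with levels of -1.94 and -1.88 in Dia and -0.13 and -0.09 in Quad. A broad region between Pvalb and Ncf4 (chr15:78238829-78248342) followed. Pvalb encodes parvalbumin, the calcium buffer of fast-relaxing fibers. Levels were -1.03 and -1.54 in Dia and 0.79 and 0.69 in Quad, a difference of -2.03 ± 0.30. A region in an exon of Polm, which encodes a DNA polymerase, had levels of -2.15 and -2.13 in Dia and 0.06 and -0.34 in Quad. An intron of Gpt2, the mitochondrial alanine aminotransferase, had -1.5 and -2.02 in Dia and 0.24 and 0.12 in Quad. The remaining regions of this set lay near Cdc14b, Ltbp1, Tex9, Tirap, Ctu2 (within Piezo1), Fbxo38, Eda2r and Nt5dc3 (within Stab2), with differences from -2.07 to -1.93. With the input subtracted, 5 of the 15 largest regions higher in Dia and 3 of the 15 lower were still past 2-fold, and 1 of each turned.

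**Figure D2:**
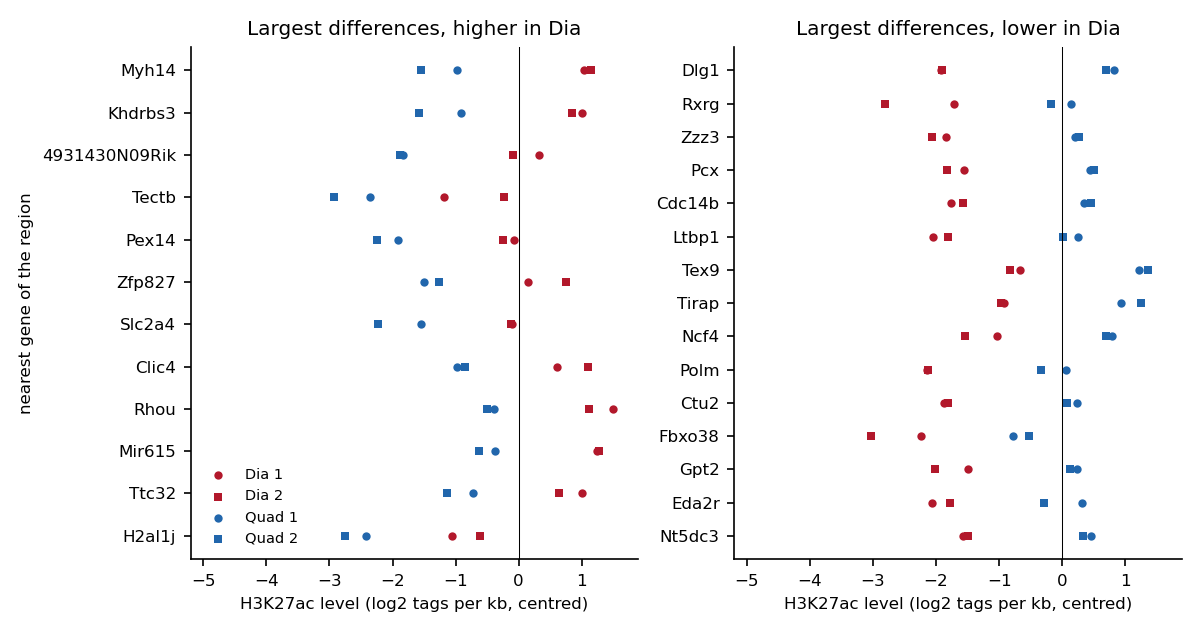
H3K27ac levels (horizontal axis, log2 tags per kb, centred) of the 2 Dia libraries (red) and the 2 Quad libraries (blue) at regions among the 15 largest differences in each direction, by nearest gene. The call rule leaves no overlap between the muscles. At Dlg1 the Dia libraries lie at -1.92 and -1.91 and the Quad libraries at 0.82 and 0.69.

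Genes of fatty acid use had the highest median difference of the lists. Of 35 genes on this list, 27 had a matched region, and the median over genes of the median difference per gene was 0.47 (SD over library pairings 0.26), against 0.06 over all 10661 genes. The gene median was positive at 21 of the 27 (77.8%, against 56.6% of all genes) and negative at 6. Fabp3, Lpl, Acadvl and Plin2 had a region called higher (4 genes, 14.8%, against 3.09% of all genes), and Ucp3 had one called lower (3.7%, against 3.82%).

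Fabp3 encodes the fatty acid binding protein of heart and oxidative muscle. Its region 8.69 kb from the start had levels of 0.45 and 0.73 in Dia and -0.47 and -0.80 in Quad (difference 1.23 ± 0.25). Acadvl encodes the mitochondrial enzyme that begins oxidation of very long chains, and its single matched region had levels of 1.27 and 1.51 in Dia and 0.13 and 0.42 in Quad (1.12 ± 0.22). Plin2, which coats lipid droplets, had levels of 0.35 and 0.98 against -0.42 and -0.39. Of these regions, that of Plin2 had the Dia libraries farthest apart.

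An intron of Lpl, the lipase that releases fatty acids from circulating lipoproteins, was 1.14 ± 0.24 higher in Dia, but -0.385 with the input subtracted. The region nearest to Ucp3, a mitochondrial carrier induced by fatty acids, lay in an intron of the neighbouring C2cd3 and had Dia levels of -1.91 and -1.42 against 0.20 and 0.13 in Quad. With the input subtracted, the median of the list was 0.34.

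Slow and fast contractile genes had list medians on opposite sides. All 9 slow fiber genes with a matched region, of 16 listed, had a positive gene median, with a list median of 0.43 (SD 0.10). These were Tnni1, Mybpc1, Ankrd2, Myl3, Csrp3, Myoz2, Smtnl1, Tpm3 and Actn2, whose products include troponin, myosin light chain, tropomyosin and Z-disc proteins. Actn2 alone had called regions, which were higher in Dia (11.1% of the matched genes, against 3.09% of all genes). Of 12 fast fiber genes with a matched region, of 15 listed, 8 had a negative gene median. The fast list median was -0.33 (SD 0.24) but 0.15 when the libraries labelled SedQuad took the place of Quad, and the slow list median was 0.63 in that comparison.

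Actn3 encodes the fast-fiber α-actinin, and its first intron had levels of -0.63 and 0.06 in Dia and 1.32 and 1.31 in Quad (difference -1.60 ± 0.40). Actn2 encodes the α-actinin of all fibers, and its first intron had levels of 1.49 and 1.44 in Dia and 0.68 and -0.03 in Quad (1.14 ± 0.41). A region 16.9 kb from Actn2 was also called, at 1.34 ± 0.56, with the first Quad library at -0.43 and the second at -1.38. Tpm1 had 2 of 4 regions called lower, at -1.15 and -1.07. Actn3 and Tpm1 were 16.7% of the matched fast fiber genes, against 3.82% of all genes with a region called lower. Myom2, an M-band protein of fast fibers, lay at -0.92 and -0.58 in its 2 regions, below the threshold.

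The myosin heavy chain genes hardly entered the matched set, because their peaks differed in extent or stood in 1 list alone. A single broad Dia peak of 11172 bp covered the start of Myh1, where the Quad list had 3 shorter peaks. At Myh4, which encodes the fastest isoform, the relation was the other way round. There the Quad list held a peak of 11637 bp with levels of 1.38 and 1.1 and the Dia list one of 4755 bp with levels of -0.61 and -0.46, which were not matched. Myh7, the slow isoform, had 3 Dia peaks and no Quad peak. The 1 matched region of Myh2, 7.06 kb upstream, had levels of 0.02 and -0.33 in Dia and -0.92 and -0.68 in Quad, 0.65 ± 0.24 higher in Dia. A Dia peak of 8575 bp in Myh2, with levels of 0.49 and 0.24, had no match.

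Calcium handling genes leaned to Quad. Of 19 listed, 16 had a matched region, 11 of them with a negative gene median, and the list median was -0.19 (SD 0.07). Pvalb, Jph2 and Trdn had regions called lower (3 genes, 18.8%, against 3.82% of all genes) and none had a region called higher. Within Pvalb, an intronic region (chr15:78191639-78197483) had levels of -0.74 and -0.47 in Dia and 0.80 and 0.93 in Quad (difference -1.47 ± 0.18), and the region near its start had levels of 0.53 and 0.58 against 1.42 and 1.15. Jph2 and Trdn, whose products hold the sarcoplasmic reticulum to the plasma membrane and anchor calsequestrin, respectively, each had 2 of 4 regions called lower, between -1.13 and -1.04.

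Glycolysis and glycogen genes had a list median of -0.16 (SD 0.12; 24 of 29 genes matched, 16 of them negative), which was 0.11 with SedQuad in place of Quad. Besides the Slc2a4 region above, the called region was 42.8 kb from Ppp1r3a, the glycogen-targeting phosphatase subunit, at -1.19 ± 0.36. Each gene was 4.17% of the matched list, near the 3.09% of all genes called higher and the 3.82% called lower. Pfkfb4, which sets the level of a glycolytic activator, had the lowest gene median of the list, with regions at -0.96 and -0.51.

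Regulators of oxidative metabolism held called regions in both directions. Of 23 genes with a matched region, Esrrb, Esrrg, Ppara, Nr4a2 and Hif1a had one called higher (5 genes, 21.7%, against 3.09% of all genes) and Rxrg one called lower (4.35%, against 3.82%). Esrrb and Esrrg are estrogen-related receptors that drive mitochondrial genes. The Esrrb region at the gene start had levels of -0.65 and -0.38 in Dia and -1.79 and -2.0 in Quad, and the Esrrg regions, in its first introns, differed by 1.2 ± 0.33 and 1.18 ± 0.66. Ppara, the fatty acid sensing receptor, had levels of 0.83 and 0.58 in Dia against -0.30 and -0.84 in Quad, 11.1 kb from the gene.

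The coactivator gene Ppargc1a, by contrast, had 6 matched regions without a call, with differences from -0.48 to 0.41. At its promoter the libraries of each muscle spread widely, with 1.07 and 0.02 in Dia and 0.77 and -0.39 in Quad. The list median was 0.14 (SD 0.03). At Nr4a2 the difference of 1.06 was 0.04 against SedQuad and 0.02 against the libraries labelled WtQuad. Genes of the citrate cycle, respiratory chain and oxygen storage had a list median of 0.13 (SD 0.15) and none of the 31 with a matched region was called higher, which is near the 3.09% of all genes. Idh2 and Idh3a, isocitrate dehydrogenase genes, had a region called lower (6.45%, against 3.82%), at -1.67 ± 0.25 and -1.13 ± 0.35, and the latter was 0.10 with the input subtracted.

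**Figure D3:**
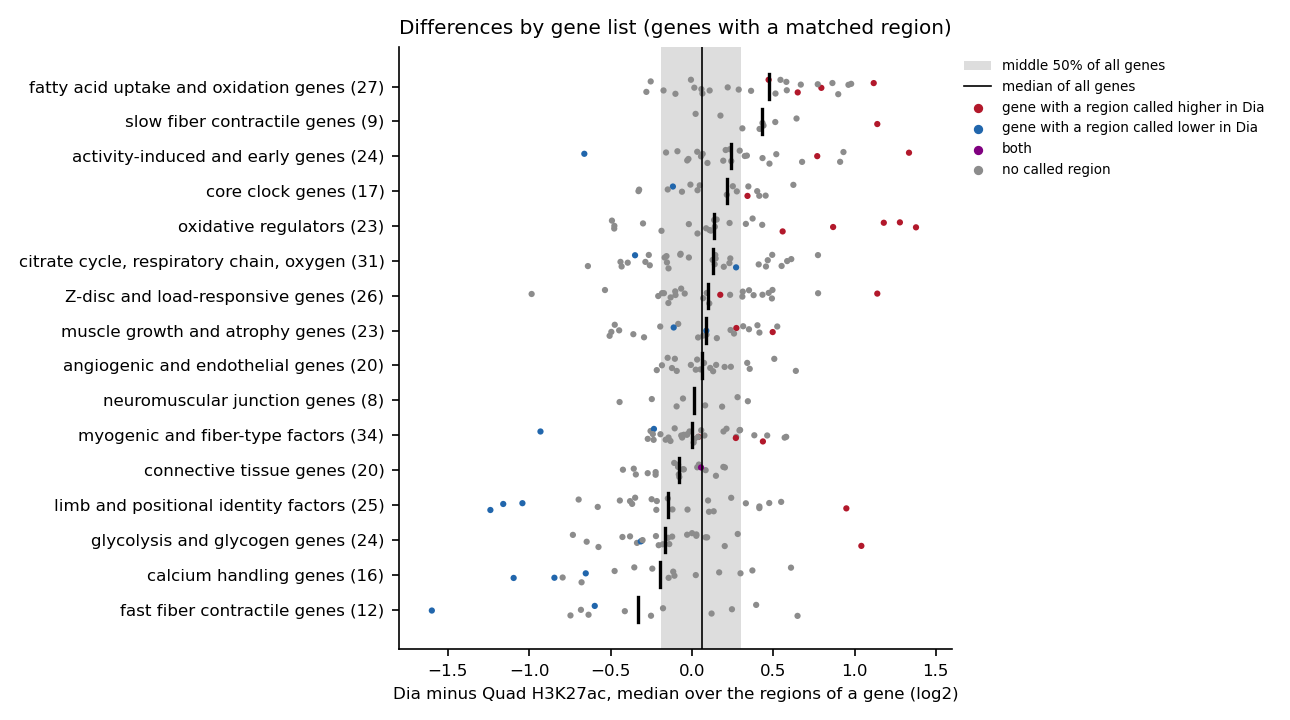
Dia minus Quad H3K27ac (horizontal axis, log2, median over the matched regions of a gene) for each gene of 16 lists, with the number of genes with a matched region in parentheses. Points are genes, thick bars list medians, the grey band the middle 50% of all genes. Rxrg (-2.25) and Ucp3 (-1.83), both with a region called lower, lie beyond the left end of the axis and are not drawn. Fatty acid and slow fiber genes have the highest medians (0.47 and 0.43) and fast fiber genes the lowest (-0.33).

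Myogenic and fiber-type factors had a list median of 0.00 (SD 0.09), with 17 of 34 genes on either side. Eya4, a transcriptional cofactor in fast fibers, had 2 of 5 regions called lower, at -1.35 ± 0.17 and -1.10 ± 0.25. Sox6, which represses slow genes, had 1 of 6 called lower, where levels were -0.35 and -0.33 in Dia and 0.71 and 0.88 in Quad. Tead1 and Runx1 had a region called higher, but that of Tead1 was -0.02 against SedQuad and that of Runx1 was -0.05 with the input subtracted. Over the whole list, 8.82% of the matched genes had a region called higher (3.09% of all genes) and 5.88% one called lower (3.82%).

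Positional factors often had peaks in 1 list alone. Of 78 genes, 25 had a matched region, 9 had peaks in the Dia list only, 10 in the Quad list only, 10 in both lists without a match, and 24 in neither. Peaks counted for the nearest gene alone. The matched region at the Mir615 promoter, inside Hoxc5, did not count for Hoxc5, which is among the 24. The 24 are outside the shares of all genes with a peak given below. Peaks only in the Dia list were assigned to Hoxa4, Hoxa6, Hoxa7, Gata4, Wt1, Barx2, Shox2, Msx1 and Isl1, and peaks only in the Quad list to Hoxa9, Hoxa10, Hoxc8, Hoxc11, Hoxd9, Hoxa2, Pitx1, Lhx2, Tcf21 and Irx5. Of these, 8 of the 9 and 8 of the 10 had peaks that overlapped no peak of the other muscle. Of all 15102 genes with a peak in either list, 8.24% had peaks in the Dia list only and 11.7% in the Quad list only, and 83.1% and 85.9% of these overlapped no peak of the other list, so the lack of overlap was near the background. These genes were named after their values were seen, except Hoxa9. Its Quad peak, with levels of 1.57 and 1.48 relative to the median of the whole Quad list, was in the top 10% of that list. It covered the strongest Dia peak given to Hoxa7, so that these names mark the same stretch.

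Pitx1, the homeobox gene of hindlimb identity, had 4 Quad peaks and no Dia peak, and Lhx2 likewise had 4. Among matched regions, an exon of Tbx3 was higher in Dia, with levels of -0.22 and -0.03 against -1.75 and -1.73 (difference 1.61 ± 0.11, and 0.40 with the input subtracted). Regions of Lbx1, Zic1 and Pax7 were called lower. These were 12% of the matched genes of the list, against 3.82% of all genes. Tbx3 alone had a region called higher (4%, against 3.09%). Lbx1, required for migration of limb and diaphragm muscle precursors, had Dia levels of -2.31 and -3.22 and Quad levels of -1.15 and -0.84 at a region 7.03 kb upstream. That difference of -1.77 ± 0.55 was 0.57 with the input subtracted, where the input differed by -2.34. The region of Pax7, the satellite cell factor, was -1.04 and then 0.02.

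Markers of some other cell types differed between the muscles, and those of most types did not. All 7 skeletal muscle fiber markers (Ckm, Acta1, Ttn, Ryr1, Des, Myf6, Cacna1s) had matched regions and none was called, with a median of -0.11, so markers of the labelled tissue were acetylated in both muscles. Acta1, skeletal actin, had levels of 1.23 and 1.21 in Dia and 1.23 and 1.16 in Quad at its promoter. Of 12 mesothelium markers, 7 (Upk3b, Upk1b, Lrrn4, Krt19, Wt1, Gpm6a and Bnc1) had peaks in the Dia list only. Wt1 was also counted among the positional factors. Over all genes with a peak this share was 8.24%, a base that leaves out genes without a peak, whereas the 12 include such markers. None of the 7 overlapped a Quad peak, as was the case for 83.1% of all genes with peaks in the Dia list only. The lack of overlap by itself was thus near the background. Msln and Krt8 had matched regions at 0.00 and -0.51, Krt7 had unmatched peaks in both lists, and the other 2 had no peak. At the strongest peak of each gene, the Dia levels of the 7 ran from -1.0 to 0.00 relative to the median of the whole Dia list.

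All 5 macrophage and leukocyte markers with a matched region, of 13, had a positive gene median (list median 0.45, SD 0.10). An intragenic region of Spi1, a myeloid factor, was called higher, with Dia levels of -0.40 and -0.60 and Quad levels of -1.5 and -1.85. Spi1 was 20% of the matched genes of this list, against 3.09% of all genes with a region called higher. Adipocyte markers (4 of 10 matched) had a median of 0.13, and smooth muscle (2 of 5), Schwann cell (2 of 5) and tendon markers (2 of 4) had medians of -0.21, 0.00 and -0.05. No cardiomyocyte marker of 8 and 1 hepatocyte marker of 9 had a matched region. The part of these cells in the differences was not tested.

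Called regions were distal more often than matched regions in general. Promoters made up 10.4% of those higher in Dia and 3.61% of those lower, against 19.3% of all matched regions, and the median distances to a transcription start site were 13.5, 25.6 and 7.45 kb. Levels entered the calls and differ between promoters and distal regions, so these shares describe the called sets. A Quad ATAC-seq peak lay in 55.0% of the regions higher in Dia (Wilson 95% interval 49.8 to 60.2), in 77.4% of those lower (73.3 to 81.1) and in 81.8% of all. The intervals cover counting error over regions only.

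H3K4me2, dimethylation of lysine 4 that marks promoters and enhancers, had a Dia peak in 62.8% of the regions higher in Dia and in 43.8% of those lower, against 72.2% of all. A Quad H3K4me2 peak lay in 69.5%, 68.6% and 81.4%. MED1, a subunit of the Mediator complex measured in 1 library per muscle, had a Dia peak in 13 of the 347 regions higher in Dia (3.75%), in 3 of the 443 lower (0.677%) and in 6.27% of all. It had a Quad peak in 22 (6.34%), 13 (2.93%) and 7.02%. All these shares lay below that of all matched regions. At the regions higher in Dia, however, the intervals for Dia MED1 (2.20 to 6.30%) and Quad MED1 (4.22 to 9.41%) held the share of all. The Myh14, Khdrbs3 and 4931430N09Rik regions shown above had no Dia MED1 and no Quad ATAC-seq peak.

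**Figure D4:**
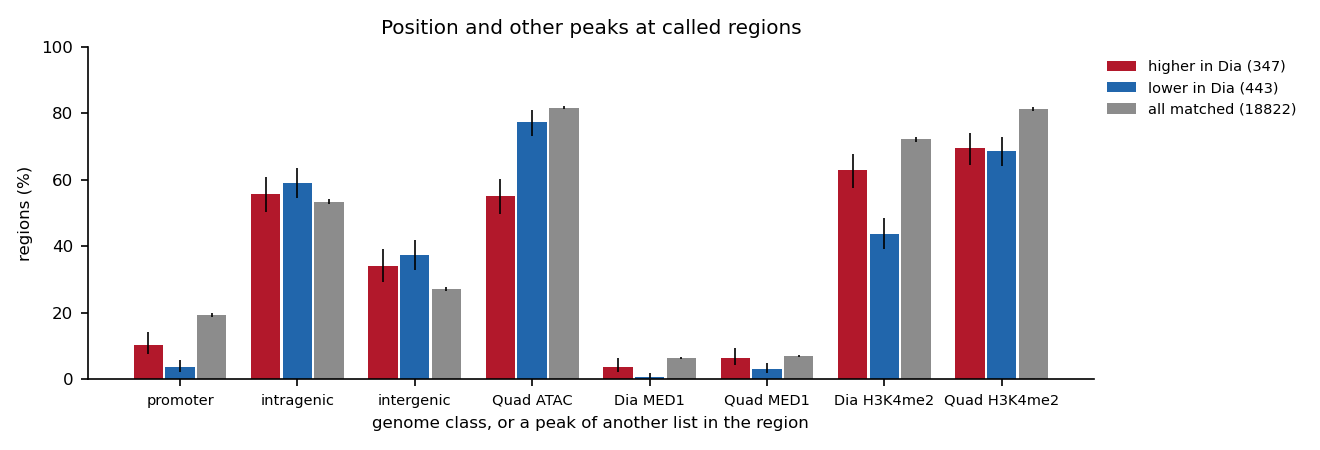
Shares of regions (vertical axis, percent) by genome class and by the presence of a peak of another list, for the 347 regions higher in Dia, the 443 lower and all 18822 matched regions; bars show the share and lines the Wilson 95% interval. Promoters are rarest among the regions lower in Dia (3.61%), and Quad ATAC-seq peaks among those higher (55.0%).

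H3K4me2 levels offered a measure that the calls had not used. H3K4me2 peaks of Dia and Quad were matched in the same way and joined to 11029 of the H3K27ac regions. At the 161 joined regions higher in Dia, H3K4me2 was 0.25 higher in Dia at the median (SD over library pairings 0.03) and higher at 132 of them (82.0%). At the 110 joined regions lower in Dia the median was -0.62 (SD 0.05), with 9 positive (8.18%), against a median of -0.01 and 48.9% positive over all joined regions. By the same call rule as for H3K27ac, 12 of the 161 were higher in H3K4me2, against 30 of all 11029 (0.272%), and 20 of the 110 were lower, against 65 (0.589%).

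The H3K4me2 comparison used the same inputs, whose columns in the H3K4me2 lists differed by 0.45 and -0.53 at these regions. With the input subtracted, the H3K4me2 medians were -0.11 and -0.03, against -0.06 over all joined regions. The called sets then no longer differed in H3K4me2 in the direction of H3K27ac. Without the subtraction, single regions differed widely. H3K4me2 was 1.17 higher in Dia at the Pex14 region and -1.70 at the Pvalb start. At the Mir615 promoter, where H3K27ac was 1.76 higher, the H3K4me2 difference was -0.04.

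The libraries labelled Soleus (Sol) and EDL, of the same strain and sedentary state and each pooled from several animals, took no part in the calls and had inputs of their own. The soleus is a slow oxidative and the extensor digitorum longus (EDL) a fast glycolytic hindlimb muscle. At the 199 regions higher in Dia that were also matched in both other lists, H3K27ac was 0.34 higher in Sol than in EDL at the median (SD 0.15), with 157 positive (78.9%). At the 202 regions lower in Dia, the median was -0.64 (SD 0.05), with 34 positive (16.8%), against 0.07 and 58.1% over all 13411 regions matched in 4 lists. Of the 202, 49 were called lower in Sol, against 174 of all (1.3%), and 17 of the 199 were called higher, against 80 of all (0.597%).

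Here the input columns differed by 0.03 and -0.18, and the medians were 0.32 and -0.39 with the input subtracted, against 0.03 over all. The regions lower in Dia thus had less H3K27ac in Sol than in EDL, and those higher in Dia had more, in both forms of the comparison. Among named regions, Actn3 was 1.62 lower in Sol (difference -1.62), Cdc14b -1.52, Myom2 at its first intron -1.38 and Sox6 -0.97. Esrrg was 0.83 higher in Sol. Fabp3 and the Actn2 regions did not share this direction, with -0.13 at Fabp3 and -0.24 to -0.19 at Actn2. Without the first Quad library in the calls, the median at the regions lower in Dia was -0.37.

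**Figure D5:**
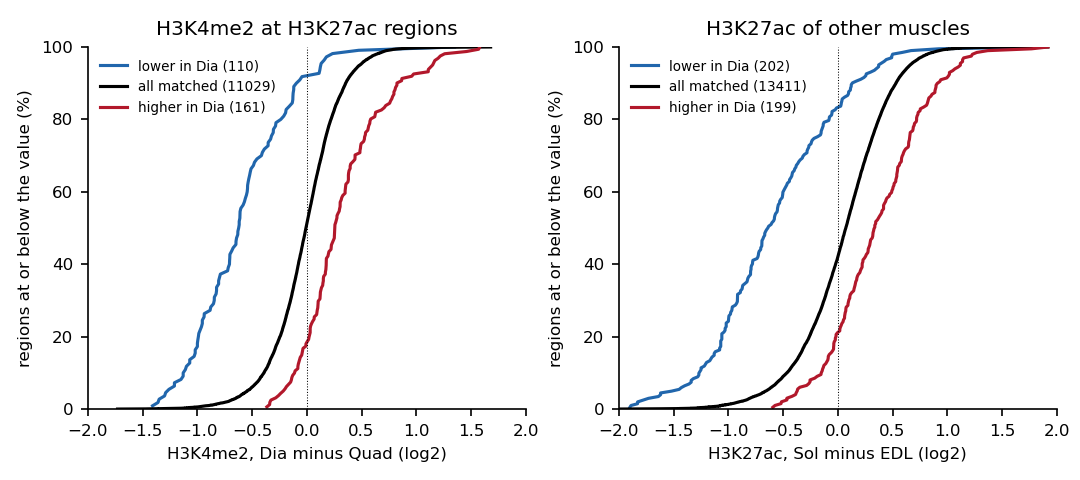
Cumulative share of regions (vertical axis, percent) at or below a difference (horizontal axis, log2), for H3K4me2 in Dia minus Quad (left) and for H3K27ac in Sol minus EDL (right), at regions lower in Dia (blue), higher in Dia (red) and all joined regions (black). The blue curves lie left and the red curves right of the black ones, with medians of -0.62 and 0.25 for H3K4me2 and -0.64 and 0.34 for Sol minus EDL; the input is not subtracted.

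The study held other H3K27ac libraries of the quadriceps, from the sedentary controls of the exercise experiment (SedQuad) and the wild-type controls of the transgenic experiment (WtQuad), again 2 of each. With the Dia libraries shared between the comparisons, the median difference at the regions called higher was 1.18 against Quad, 0.88 against SedQuad (186 regions) and 0.83 against WtQuad (193). At the regions called lower it was -1.18, -0.85 (307) and -1.04 (305). The regions were chosen with these Dia libraries, so a shared sign says nothing of stability. The sign was opposite at 19 of the 186 and 19 of the 193 regions called higher, and at 2 of the 307 and 1 of the 305 called lower. Of the same sets, 72 of the 186 and 107 of the 307 were called against SedQuad, and 73 of the 193 and 165 of the 305 against WtQuad. The Dlg1 region had -2.30 and -2.37, Pcx -1.90 and -1.68, Khdrbs3 1.67 and 2.09, and Actn3 -1.22 and -1.34 against SedQuad and WtQuad.

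Sequence composition was compared for 15 short motifs, searched on both strands over whole regions, whose median width was 2100 bp for those higher in Dia, 2490 bp for those lower and 2479 bp for all. The MEF2 motif occurred in 33.4% of the regions higher in Dia (Wilson 95% interval 28.7 to 38.5) and in 42.7% of those lower (38.1 to 47.3), against 34.6% of all matched regions. CAGCTG, which reads the same on both strands, occurred in 70.3%, 78.6% and 74.1%, and AGGTCA in 76.1%, 82.6% and 78.2%. TGANTCA occurred in 49.3%, 59.6% and 54.1%. GGAATG occurred in 70.6%, 74.9% and 73.2% and TCAGGTTNC in 11.5%, 14.4% and 12.7%. Median GC content was 48.3%, 46.0% and 49.4%, and its part in the shares was not tested.

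In windows of 1000 bp at the region centre, which make the widths equal, the MEF2 motif occurred in 22.5% of the regions higher in Dia (18.4 to 27.2) and in 102 of the 443 lower (19.4 to 27.2%), against 14.2% of all. GGAATG occurred there in 46.1% and 45.4% (42.1% of all), TGANTCA in 29.7% and 30.0% (25.6%), AGGTCA in 51.0% and 54.9% (48.6%), CAGCTG in 46.4% and 53.3% (47.1%) and TCAGGTTNC in 5.76% and 6.32% (4.56%). Over whole regions, where those lower in Dia were the wider, the gaps between the called sets were larger for all 6. The share of the MEF2 motif was above that of all regions in both called sets in the windows, and in those lower in Dia alone over whole regions. The other words were CAGGTG (an E-box), the RUNX word TGTGGT, the paired-like homeobox word TAATCC, the GATA word AGATAA, the NFAT word TGGAAA, the Hox word TTTATNG and the T-box word AGGTGTGA. The estrogen-related receptor word TCAAGGTCA and the nuclear receptor word AAAGGTCA both contain AGGTCA and so overlap it. Over whole regions these 9 occurred in 6.34% to 81.8% of the regions higher in Dia and in 9.48% to 90.1% of those lower, against 9.16% to 86.1% of all. In the windows of equal width they occurred in 3.17% to 65.7% and 2.94% to 66.1%, against 2.8% to 59.2% of all. Among them CAGGTG occurred in 57.9% (52.7 to 63.0) and 56.0% (51.3 to 60.5), against 50.2% of all. TGGAAA occurred in 65.7% (60.6 to 70.5) and 66.1% (61.6 to 70.4), against 59.2%. A share above that of all regions in both called sets was thus not particular to the MEF2 motif.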

How the data were processed

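H3K27ac was measured by ChIP-seq in 2 Dia and 2 Quad libraries, with H3K4me2, Sol, EDL, SedQuad and WtQuad H3K27ac lists (2 libraries each), MED1 peaks (1 library per muscle) and an ATAC-seq list pooled over control Quad libraries as further readouts. The authors aligned reads to mm10 with Bowtie 1.2 (version from the submitters' processing notes) and called peaks with HOMER. The tag columns are, per the file headers, log2 values from the DESeq2 step of HOMER, taken to be its regularized logarithm, made within each list together with its inputs, so lists were normalised separately and no test between muscles was made. The deposited peak score, 1 value over both replicates, and the adjusted p-value of target against input, both made by the authors with HOMER, served only as alternatives. The deposited fold-change columns hold the authors' comparison of target against input and were not used. The tag columns are not read counts, so their counting error is not known.

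From each log2 value the log2 of the region width in kb was subtracted, and each library was centred on its median over the matched regions. Each peak was paired with at most 1 peak of the other list, each covering 50% or more of the other. Other peaks counted as present with an overlap of 1 bp, and H3K4me2 pairs were joined where they covered 50% of the smaller interval. SDs are over the 4 pairings of single libraries, and intervals are Wilson intervals at 95% confidence. Nearest genes are those HOMER gave in the Quad list, by nearest promoter. Flanking genes come from GENCODE vM21 (GRCm38) and sequences from the same build. No peak ended beyond a chromosome of that build, and 7267 of 7649 start sites implied by the Quad list lay within 100 bp of the RefSeq entry. The labels do not say whether replicates came from separate animals beyond the pooling given above.

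Genes were named by rule. The rule took the 15 largest called regions per direction, up to 10 genes per direction with at least 3 called regions, in each of 16 gene lists up to 6 genes with a called region and the 2 with the largest median, and the loci Myh1, Myh2, Myh4, Myh7, Ngdn, Pvalb, Acta1, Ppargc1a and Bdh1. Genes without a matched region were named where 1 list had a peak in its top 10%. Other genes named, among them Msln, Krt8, Spi1 and most positional factors, were chosen after their values were seen. The members, the lists and the 9 marker lists were chosen with earlier results of these data known. Alternatives were other overlaps, no width correction, other centrings, a stricter p-value, similar widths, the peak score, other Quad libraries, a replicate block, subtraction of the input and each library left out. Some regions and genes that the rule named are not reported here. Analysis used Python 3.11.15 with numpy 2.4.6, pandas 2.3.3, scipy 1.17.1, matplotlib 3.10.9 and pysam 0.24.0, and samtools 1.23.1.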

Additional observations from a re-analysis of the deposited data

How the results depend on the processing

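Regions over 2-fold higher in Dia numbered 347 and regions over 2-fold lower in Dia 443. At a reciprocal overlap of 80% they numbered 73 and 141, at 30% the former 605, without width correction 1052 and 1159, at an adjusted p under 0.001 in both lists 181 and 242, and with similar widths 115 and 191. With the input subtracted, chosen after the data were seen, both numbered 101. Leaving out each library in turn gave 326 to 540 higher (540 without the first Quad library) and 485 to 566 lower. The replicates of the muscles share only a number (r of 0.17 between their replicate differences, 2 pairs), and a replicate block gave 182 and 247. The rank correlation of Dia and Quad levels was 0.9, 0.859, 0.908, 0.841, 0.899 and 0.704 under the 80%, 30%, no width, p, similar-width and input settings, and 0.851 to 0.874 with a library left out.

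The H3K4me2 difference at regions higher in Dia was 0.114 at 80%, 0.284 at 30%, -0.106 with the input subtracted and 0.243 to 0.287 with a library left out. At regions lower in Dia it was -0.71 at 80%, -0.674 without width correction, -0.0328 with the input subtracted and -0.601 to -0.537 with a library left out. The Sol minus EDL difference was 0.254 to 0.367 at regions higher in Dia with a library left out. At regions lower in Dia it was -0.706 without width correction, -0.388 with the input subtracted and -0.673 to -0.37 with a library left out. At 80% overlap, promoters and Dia MED1 peaks were at 16.4% and 6.85% and Quad H3K4me2 peaks at 78.1% of regions higher in Dia, and Quad MED1 and Dia H3K4me2 peaks at 6.38% and 50.4% of those lower. Without width correction, Quad MED1 peaks were at 3.14% of those higher.

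Directions reversed for growth and atrophy genes without width correction (-0.102) and with the input subtracted (-0.00406). With SedQuad in place of Quad they reversed for fast fiber (0.147) and glycolysis genes (0.106), Tead1 (-0.0187) and a Gm4814 region (0.226). With the input subtracted they reversed for positional factors (0.0388), 4931430N09Rik (-0.0954), Lpl (-0.385), Runx1 (-0.0504), Pax7 (0.016), an Nt5dc3 region (0.168), Idh3a (0.1), Lbx1 (0.572) and Fbxo38 (0.314). Of 1924 values of named regions under the alternatives, 1564 stayed within 1 SD and 350 moved further, as did 177 and 58 of 240 list medians. A reversal was counted only at called regions and at list medians larger than their SD. Sign changes at other regions and lists are not listed above and stand among these counts. The causes were not tested. As the lists were normalised separately, no test was made, and the depth behind a single region is not known from log2 values.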

Other observations

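Few genes had several called regions. Trib1, which encodes a pseudokinase of lipid metabolism, had 3 of 15 regions called higher in Dia, at 1.56 ± 0.57, 1.52 ± 0.31 and 1.17 ± 0.37. The first of these lay in an intron of Nsmce2, with levels of 0.46 and 0.26 in Dia and -0.72 and -1.69 in Quad. Mkl2 (now Mrtfb), a cofactor of serum response factor, had 3 of 8 regions called lower. Its lowest had levels of -0.59 and -0.46 in Dia and 1.1 and 0.89 in Quad, and all 3 lay between -1.51 and -1.26. Nt5dc3 had 3 of 4 regions called lower, of which 2 lay in introns of Stab2, a scavenger receptor. Against SedQuad these regions differed by -1.82, -0.22 and -0.17. Gm4814 had 3 of 5 called lower, at the locus of Cmya5, a gene of striated muscle, with differences of -1.53, -1.04 and -1.04.

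Genes induced by activity had a list median of 0.24 (SD over library pairings 0.07), with 19 of 24 positive. Hspa1b, an inducible heat shock protein, and Ier3, an immediate early gene, had regions called higher, with Hspa1b at 2.10 and 1.67 in Dia and 0.74 and 0.36 in Quad. Fosl2 had one called lower at -1.41 ± 0.23. Core clock genes had a median of 0.21 (SD 0.06), with Nfil3 called higher at 1.23 ± 0.15 and Rora lower at -1.10 ± 0.11. Of Z-disc and load-responsive genes, Actn2 had regions called higher and none had one called lower, against 3.82% of all genes (median 0.10, SD 0.09). Over that whole list, 7.69% of the matched genes had a region called higher, against 3.09% of all genes. Growth and atrophy genes had Igf1r and Akt1 called higher and Smad3 and Klf15 lower (median 0.09, SD 0.07), but Akt1 was 0.01 against SedQuad. Angiogenic (median 0.06, 20 genes) and neuromuscular junction genes (0.01, 8 genes) had no called region, near the shares of all genes (3.09% higher, 3.82% lower). Genes with a region called higher were 8.33% of matched activity, 5.88% of clock, 8.7% of growth and 5% of connective tissue genes. Those with one called lower were 4.17%, 5.88%, 8.7% and 5%, in the same order. Connective tissue genes had a median of -0.08 (SD 0.16), and Dpt, a matrix protein gene, had 1 intronic region called higher at 1.16 and another called lower at -1.51. Among genes with a peak in 1 list, the strong Dia peak of Tnnt3 (levels 1.94 and 2.02) and the Quad peak of Pnpla2 (2.28 and 2.64) and Oxct1 (1.95 and 1.85) each overlapped a peak of the other muscle given to another gene. The levels of Tnnt3, Pnpla2 and Oxct1 are relative to the median of the whole list, not of the matched regions.

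Bdh1 peaks, none of them matched, were broader in Dia. A Dia peak of 5583 bp in the gene had levels of 0.74 and 0.60, where the Quad list had peaks of 500 and 1494 bp with levels of -0.22 and -0.94 and of -1.77 and -2.32. The promoter peak of Ngdn, a control locus of the study, was in the Dia list, at 0.75 and 0.97, and no peak of the Quad list overlapped it. The SedQuad list gave Ngdn 1 peak and the WtQuad list 2.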
